A study of Mus musculus with 6 samples.

Results

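Homologous recombination repairs DNA double-strand breaks with the sister chromatid as template, and the Fanconi anemia pathway unhooks DNA interstrand crosslinks and hands the resulting breaks to the same machinery. The 39 mouse genes described here encode the working parts of both pathways: the BRCA1 and BRCA2 complexes, the strand exchange factors, the end resection enzymes, the BLM dissolvasome, the Fanconi core complex, the FANCD2-FANCI complex and the nucleases that cut joined or crosslinked DNA. They were chosen by name as pathway components and not by their values, although earlier results of these data were known at the time. All 39 were found among the 14546 genes listed in the deposited PRO-seq table. Of these, 38 were among the 12451 genes tested. *Fancb* was not tested because it lies on chromosome X, which the study excluded.

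PRO-seq maps transcribing RNA polymerase II: nuclei are given biotin-labelled nucleotides, engaged polymerases build them into the RNA they are making, and this RNA is pulled down for sequencing. The libraries came from cultured, proliferating muscle stem cells (MuSCs), the PAX7-positive satellite cells that rebuild skeletal muscle, in 3 Ctrl samples (Pax7CreERT/Suv4-20h1WT) and 3 *Kmt5b* sKO samples (Pax7CreERT/Suv4-20h1KO). Suv4-20h1 is the older name of *Kmt5b*, which encodes a methyltransferase that adds methyl groups to lysine 20 of histone H4. The comparison addresses how transcription changes when this enzyme is lost from MuSCs. Both groups carry the Pax7CreERT driver, a tamoxifen-dependent Cre recombinase made where *Pax7* is active, so the floxed *Kmt5b* allele is deleted only in cells that expressed *Pax7* during treatment, and the share of cells that kept an intact allele was not analysed here. By the study's methods the strains were kept on a C57BL/6 background, tamoxifen was injected into adult mice, and the cells were enriched with magnetic beads from limb and trunk muscle and grown on Matrigel in medium with serum, LIF and bFGF. The age of the donor mice of each library is not given in the labels. The study names these libraries biological replicates, but the labels do not say that each came from a separate mouse, so p-values measure the spread between these samples.

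Reads on the sense strand were counted by the authors in a TSS region, the 400 nt that begin at the transcription start site, and in the gene body, which runs from there to the transcript end. TSS values are in RPM, that is reads scaled to a fixed total in each library, and gene body values in TPM, which also divides by length. Read numbers could be recovered from the spacing of the low values, though only approximately for long gene bodies. Libraries held 926904 to 3246088 reads in TSS regions and 7425424 to 16249257 in gene bodies, with *Kmt5b* sKO replicate 2 the shallowest in both regions. In gene bodies every *Kmt5b* sKO library was shallower than every Ctrl library. Ctrl replicates 1, 2 and 3 held 16249257, 13582490 and 14241060 reads there, against 12824306, 7425424 and 11536013 in *Kmt5b* sKO. In TSS regions the depths of the groups overlapped. The part of depth in the differences was not tested. Behind a single value of a member lay 1 to 613 TSS reads (median 59) and 5 to 1980 gene body reads (median 301.5), so TSS values are the less precise. *Kmt5b* itself read 30.6, 35.4 and 38.5 TPM in the gene body of the Ctrl libraries and 37.8, 35.0 and 42.6 TPM in the *Kmt5b* sKO libraries. These values span the whole gene rather than the deleted part, so they do not check the genotype labels. Satellite cell markers were present in all libraries: the gene bodies of *Pax7*, *Myf5*, *Myod1*, *Cdh15*, *Itga7*, *Vcam1*, *Sdc4* and *Cxcr4* summed to 1321 to 2014 TPM in Ctrl against 1595 to 2056 TPM in *Kmt5b* sKO. Of the markers of other cell types, 3 of 6 fibro-adipogenic genes were listed, with sums of 4.86 to 9.78 TPM in Ctrl against 5.17 to 7.56 TPM in *Kmt5b* sKO, and 4 of 6 endothelial genes, with sums of 2.98 to 4.66 TPM and 5.23 to 5.73 TPM. Of the 6 leukocyte markers, *Cd68* and *Itgam* were listed, and the sum of 214 to 402 TPM in Ctrl against 320 to 326 TPM in *Kmt5b* sKO was nearly all *Cd68*, a lysosomal gene.

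In cycling cells many recombination genes are transcribed at the approach to S phase, when a sister chromatid becomes available. Transcription factors of the E2F family bind many such promoters, the CHR element serves genes of the later cell cycle, and the CCAAT box binds the trimeric factor NF-Y. RefSeq promoter sequences (build GRCm38.p6, 250 bases before the start and 50 after it) were at hand for 29 of the 39 genes, and their RefSeq starts lay within 221 nt of the starts that the authors list. The promoters of *Rad51d*, *Xrcc2*, *Rad54b*, *Rad50*, *Nbn*, *Rbbp8*, *Exo1*, *Rmi2*, *Top3a* and *Fancd2* were not analysed here. The search covered both strands for the E2F motif (TTTCCCGC, TTTCGCGC, TTTGCCGC or TTTGGCGC), the CHR (TTTGAA or TTCGAA) and the CCAAT box (CCAAT). The E2F motif was found in 5 of the 29 promoters (17.2%), those of *Bard1*, *Brca2*, *Rad51c*, *Rmi1* and *Fancg*, against 2.26% of all 32851 promoters and 3.84% of those of tested genes. A CHR was found in 3 (10.3%), those of *Bard1*, *Eme1* and *Gen1*, against 19.2% of all promoters and 13.5% of those of tested genes. A CCAAT box was found in 18 (62.1%), against 37.4% of both.

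Of the 13 genes called below as lower in *Kmt5b* sKO, 10 had a promoter in the table. The E2F motif was in 2 of these 10 and in 3 of the 19 other promoters, the CHR in 3 and in 0, and the CCAAT box in 5 and in 13. None of the motifs was in all 10, and the promoter of the called gene *Fanci* held none of them. Shown here are 5 promoters of called genes that between them hold each motif, and that of *Mus81*, whose gene body difference was the highest of the set and whose window held none of them. They lie on GRCm38.p6 at chr5:150522371-150522670 on the plus strand (*Brca2*), and on the minus strand at chr1:71102923-71103222 (*Bard1*), chr11:86201144-86201443 (*Brip1*), chr6:126939538-126939837 (*Rad51ap1*), chr12:11265758-11266057 (*Gen1*) and chr19:5488330-5488629 (*Mus81*). Each is written 5′ to 3′ in the direction of its gene, and capitals mark the matches. A match is a string of letters and not evidence of a bound factor.
Brca2: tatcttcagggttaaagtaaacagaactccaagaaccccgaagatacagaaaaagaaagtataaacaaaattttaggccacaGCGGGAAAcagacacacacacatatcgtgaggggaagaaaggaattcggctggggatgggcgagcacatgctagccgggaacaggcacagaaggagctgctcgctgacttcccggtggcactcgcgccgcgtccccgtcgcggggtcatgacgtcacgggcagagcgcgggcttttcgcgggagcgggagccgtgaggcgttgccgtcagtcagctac
Bard1: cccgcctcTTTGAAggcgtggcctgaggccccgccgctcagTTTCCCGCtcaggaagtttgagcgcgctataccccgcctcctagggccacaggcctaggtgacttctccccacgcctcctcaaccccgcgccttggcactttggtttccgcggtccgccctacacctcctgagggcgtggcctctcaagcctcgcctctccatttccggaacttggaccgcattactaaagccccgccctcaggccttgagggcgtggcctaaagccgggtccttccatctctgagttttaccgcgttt
Brip1: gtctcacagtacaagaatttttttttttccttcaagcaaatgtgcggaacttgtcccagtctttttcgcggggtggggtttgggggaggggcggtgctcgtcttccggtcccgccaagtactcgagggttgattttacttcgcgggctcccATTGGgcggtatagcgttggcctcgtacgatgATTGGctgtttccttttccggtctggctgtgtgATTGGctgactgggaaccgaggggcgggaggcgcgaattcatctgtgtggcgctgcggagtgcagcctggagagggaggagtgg
Rad51ap1: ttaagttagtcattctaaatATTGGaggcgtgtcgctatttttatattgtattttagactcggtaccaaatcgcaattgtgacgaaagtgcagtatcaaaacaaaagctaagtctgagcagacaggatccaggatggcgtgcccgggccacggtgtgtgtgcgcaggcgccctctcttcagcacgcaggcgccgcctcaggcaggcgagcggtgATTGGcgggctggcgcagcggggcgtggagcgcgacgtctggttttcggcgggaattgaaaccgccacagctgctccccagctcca
Gen1: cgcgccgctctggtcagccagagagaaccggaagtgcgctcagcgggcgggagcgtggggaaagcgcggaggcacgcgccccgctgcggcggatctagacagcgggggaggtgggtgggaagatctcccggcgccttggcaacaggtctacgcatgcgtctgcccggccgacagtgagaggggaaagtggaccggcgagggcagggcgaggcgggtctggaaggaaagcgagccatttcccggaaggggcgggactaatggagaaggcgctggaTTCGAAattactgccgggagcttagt
Mus81: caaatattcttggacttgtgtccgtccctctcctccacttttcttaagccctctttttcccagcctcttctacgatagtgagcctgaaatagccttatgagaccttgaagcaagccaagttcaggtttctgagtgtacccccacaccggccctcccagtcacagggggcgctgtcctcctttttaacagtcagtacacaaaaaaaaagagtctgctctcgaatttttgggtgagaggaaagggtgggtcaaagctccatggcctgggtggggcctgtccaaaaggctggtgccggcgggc
In the *Brca2* window the capitals are the E2F motif on the opposite strand, and in *Bard1* a CHR followed by an E2F motif. The capitals in *Brip1* and *Rad51ap1* are inverted CCAAT boxes, and those in *Gen1* a CHR at position 25 from the RefSeq start. The *Gen1* start that the authors list lies further downstream, so this CHR is upstream of it. In *Eme1*, not shown, the listed start lies 221 nt upstream of the RefSeq start. Its CHR, at position 22 from the RefSeq start, is therefore downstream of the listed start.

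Most of the recombination and Fanconi genes had lower PRO-seq values in the *Kmt5b* sKO libraries. In the gene body, 34 of the 38 tested genes (89.5%) had a log2 difference (*Kmt5b* sKO minus Ctrl) below 0 and 4 above it. Of all tested genes 46.2% were below 0. Their median was -0.45 with quartiles of -0.90 and -0.19, and the median over all tested genes was 0.02. Against the mean log2 value of the Ctrl libraries, the median deviation of the genes was 0.07, 0.01 and -0.15 for Ctrl replicates 1, 2 and 3, compared with -0.44, -0.46 and -0.47 for *Kmt5b* sKO replicates 1, 2 and 3. The 3 *Kmt5b* sKO libraries were thus close to each other and all below the Ctrl libraries. In the TSS region 33 genes (86.8%) were below 0, against 41.8% of all tested genes, and 5 above. The median was -0.48 against 0.08 over all tested genes. There the corresponding deviations were 0.15, -0.06 and -0.12 (Ctrl), compared with -0.62, -0.62 and -0.41 (*Kmt5b* sKO).

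Calls were made with limma on log2(value + 0.5) at a Benjamini-Hochberg adjusted p under 0.1 over all tested genes. The added 0.5 makes the differences of weakly transcribed genes look smaller. The study also used 0.1, but together with a fold-change cut-off, and in PRO-seq for enhancer RNAs rather than genes. No fold-change cut-off was used here. In the gene body 9 of 38 genes (23.7%) were called lower, *Brca1*, *Brca2*, *Brip1*, *Rad54l*, *Exo1*, *Fanca*, *Fancd2*, *Fanci* and *Gen1*, against a background of 1.38% of all tested genes called lower. None of the 38 was called higher by limma or edgeR, against 1.61% of all tested genes by limma, and none of those above 0 had an unadjusted p under 0.05. In 23 of the 38 (60.5%) every *Kmt5b* sKO library lay below every Ctrl library, against 9.34% of all tested genes, and in 0 every *Kmt5b* sKO library lay above. For either region, the share of all tested genes that lay above in this way was not counted here. In the TSS region 4 genes (10.5%) were called lower, *Bard1*, *Rad51ap1*, *Rmi2* and *Eme1*, against 0.731%, and 0 higher, against 0.932%. There the groups did not overlap, with *Kmt5b* sKO lower, for 19 of the 38 genes, against 5.33%. No gene was called in both regions, but 15 were lower in both with no overlap between the groups, against 2.43% of all tested genes: *Brca1*, *Bard1*, *Palb2*, *Brca2*, *Rad51c*, *Rad54l*, *Rad50*, *Nbn*, *Exo1*, *Blm*, *Rmi2*, *Fanca*, *Fancm*, *Fancd2* and *Fanci*.

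The number of calls depended on single libraries more than the values did. Without Ctrl replicate 3 the gene body calls were 15, when 4.06% of all tested genes were called lower. Without any 1 of the other 5 libraries they were 0 by limma. There 16 to 18 of the genes had an unadjusted p under 0.05, against 11.0% to 15.7% of all tested genes. In 4 of these 5 cases limma called no gene of the whole table, and without Ctrl replicate 2 it called 66 of all tested genes lower (0.53%). In the TSS region 8 were called without Ctrl replicate 2 (1.05% of all tested genes), 6 without Ctrl replicate 3 (1.12%), 2 without *Kmt5b* sKO replicate 2 (0.426%) and 1 without *Kmt5b* sKO replicate 3 (0.233%). There limma called 0 without Ctrl replicate 1 or *Kmt5b* sKO replicate 1, where 0 and 2 of all tested genes were called lower. In each of these cases 15 of the 38 had an unadjusted p under 0.05, against 8.01% and 7.94% of all tested genes. The medians moved only between -0.53 and -0.37 in the gene body and between -0.53 and -0.47 in the TSS region. On the recovered reads, edgeR's quasi-likelihood test called 13 of the genes lower in the gene body, against 2.84% of all tested genes, and 9 in the TSS region, against 1.2%, and these included all 9 and all 4 of the genes called by limma.

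**Figure D1:**
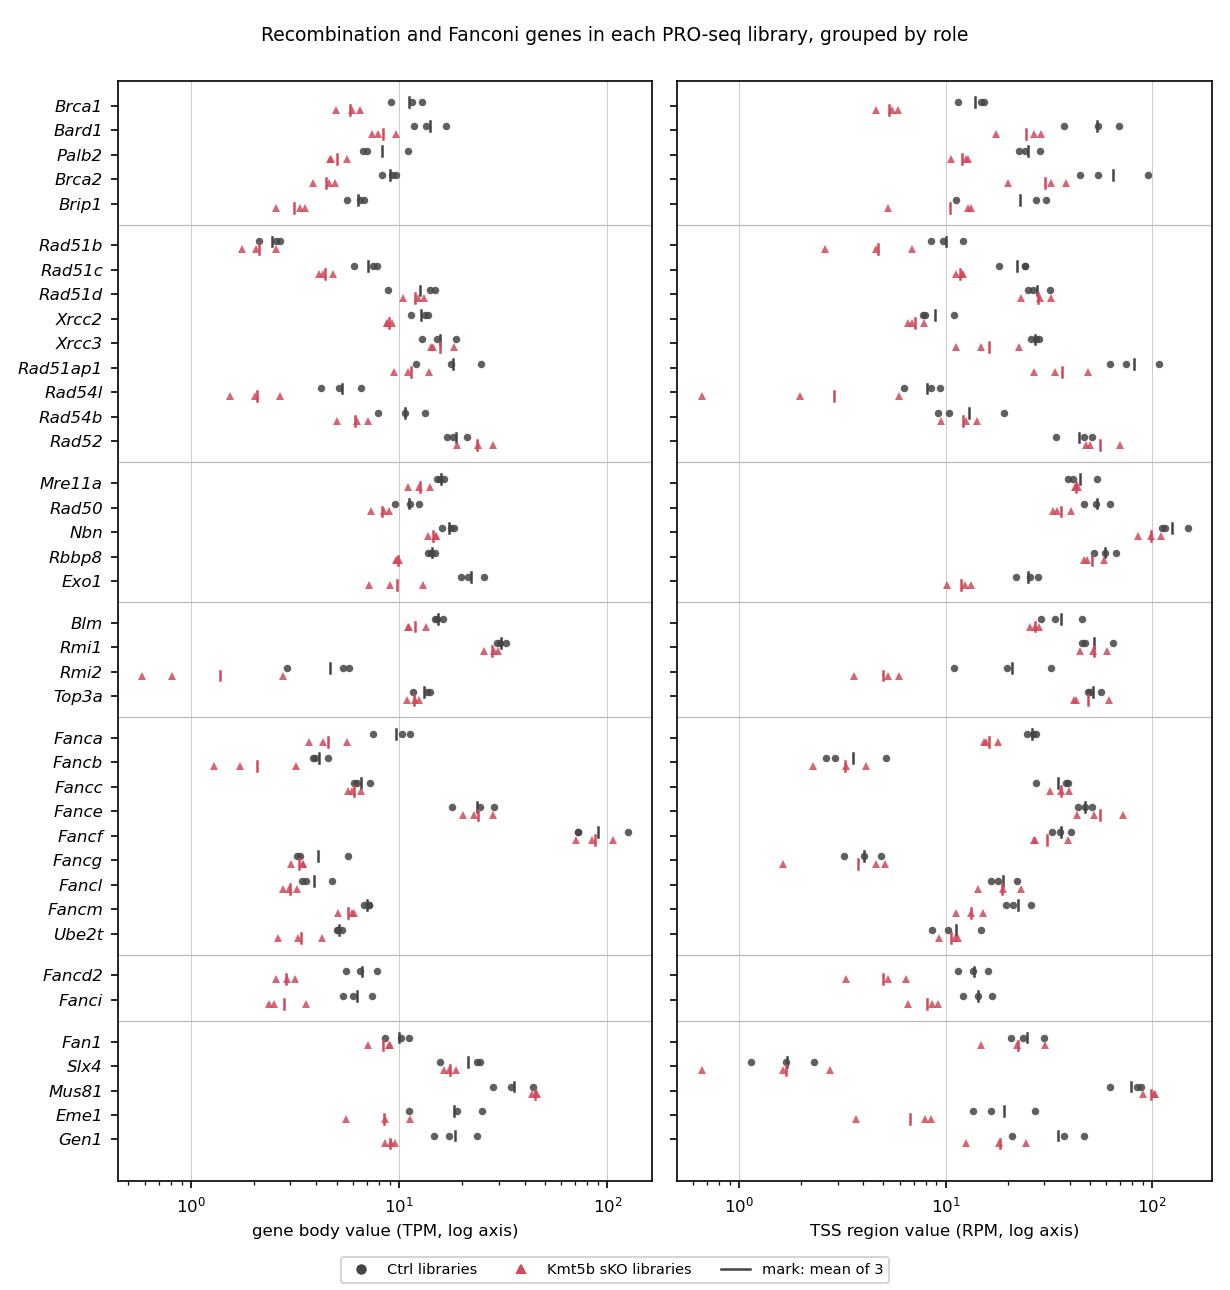
Values of all 39 genes in each library, with the gene body in TPM on the left and the TSS region in RPM on the right, both on log axes. Points are single libraries, bars are means of 3, and grey lines separate the role groups. The *Kmt5b* sKO points of *Brca1*, *Brca2*, *Exo1*, *Fancd2* and *Fanci* lie to the left of all Ctrl points in both panels, and those of *Mus81* do not.

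The BRCA1 and BRCA2 complexes prepare resected DNA for strand exchange, and this group was lower as a block: all 5 genes had gene body values in *Kmt5b* sKO below every Ctrl library, with a median log2 difference of -0.88, and 3 were called. *Brca2*, whose product binds single-stranded DNA and sets up strand exchange, had gene body values of 8.24, 9.27 and 9.69 TPM in Ctrl against 4.89, 4.61 and 3.84 TPM in *Kmt5b* sKO. The groups were well apart, and *Kmt5b* sKO was 51.0% lower (log2 difference -0.95 ± 0.16 SE, limma adjusted p = 0.0655). At its TSS the values were 95.1, 44.8 and 54.7 RPM in Ctrl against 20.0, 32.4 and 38.2 RPM in *Kmt5b* sKO, again without overlap although Ctrl replicate 1 stood far above the other Ctrl libraries (adjusted p = 0.104). *Brca1*, a ubiquitin ligase that opens the way for resection, had 12.9, 11.5 and 9.12 TPM in Ctrl against 4.98, 5.96 and 6.5 TPM in *Kmt5b* sKO. That is 47.9% lower (log2 difference -0.88 ± 0.18 SE, adjusted p = 0.0823). Its TSS values were 14.8, 11.5 and 15.3 RPM against 5.9, 4.62 and 5.52 RPM, with no overlap and a larger difference of -1.29 on the log2 scale that was not called (adjusted p = 0.107). *Brip1*, a helicase that binds BRCA1 and is also a Fanconi gene, fell in the gene body from 6.48, 6.79 and 5.64 TPM to 2.56, 3.34 and 3.51 TPM (log2 difference -0.91 ± 0.18 SE, adjusted p = 0.0758). Its TSS groups overlapped, because Ctrl replicate 3 stood at 11.2 RPM beside 27.4 and 30.4 RPM in the other Ctrl libraries.

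*Bard1*, the obligate partner of BRCA1, was called at the TSS: 54.5, 37.4 and 69.3 RPM in Ctrl against 26.9, 29.1 and 17.5 RPM in *Kmt5b* sKO. The lowest Ctrl value was above the highest *Kmt5b* sKO value, and *Kmt5b* sKO was 54.4% lower (log2 difference -1.11 ± 0.28 SE, adjusted p = 0.0738). In its gene body the difference was -0.71 (adjusted p = 0.126). *Palb2*, which bridges BRCA1 and BRCA2, was not called, with a log2 difference of -0.64 in the gene body and -1.04 at the TSS, where its values of 28.6, 24.1 and 22.7 RPM in Ctrl against 12.8, 12.6 and 10.6 RPM in *Kmt5b* sKO did not overlap (adjusted p = 0.107).

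The 9 strand exchange factors split. *Rad54l*, a DNA translocase that helps a broken strand invade its template, had the largest gene body difference of this group: 6.53, 5.13 and 4.19 TPM in Ctrl against 1.54, 2.03 and 2.66 TPM in *Kmt5b* sKO, with no overlap. *Kmt5b* sKO was 60.7% lower (log2 difference -1.17 ± 0.24 SE, adjusted p = 0.0806). Its TSS values rested on as few as 2 reads and gave -1.68 (adjusted p = 0.19). *Rad51ap1*, which stimulates strand invasion, was called at the TSS, where 108, 74.7 and 62.1 RPM in Ctrl stood above 26.9, 33.7 and 48.8 RPM in *Kmt5b* sKO (55.4% lower, log2 difference -1.16 ± 0.27 SE, adjusted p = 0.0549). The gene body of *Rad51ap1* overlapped between groups, since Ctrl replicate 3 at 12.01 TPM lay below *Kmt5b* sKO replicate 3 at 13.9 TPM.

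Of the 5 genes *Rad51b*, *Rad51c*, *Rad51d*, *Xrcc2* and *Xrcc3*, whose products form complexes that assist strand exchange, none was called. *Rad51c* and *Xrcc2* had gene body differences of -0.62 (adjusted p = 0.135) and -0.50 (adjusted p = 0.143), both without overlap between groups. *Rad51d*, at -0.04 (95% interval -0.56 to 0.47), and *Xrcc3*, at 0.01 (-0.41 to 0.44), had overlapping groups, and these intervals leave room for changes of either sign. At the TSS *Xrcc3* had 27.4, 28.1 and 25.9 RPM in Ctrl against 14.8, 11.2 and 22.5 RPM in *Kmt5b* sKO, lower without overlap (log2 difference -0.79, 95% interval -1.42 to -0.15, adjusted p = 0.297). *Rad51b*, the longest gene of the set with a body of 517008 nt, differed by -0.17 in the gene body and by -1.09 at the TSS (adjusted p = 0.307). *Rad54b*, a paralog of *Rad54l*, differed by -0.73 in the gene body (adjusted p = 0.171) and by -0.04 at the TSS, and overlaps the annotated gene *Fsbp* on the same strand. *Rad52*, which anneals complementary single strands, lay on the other side of 0. It had 18.03, 21.2 and 16.9 TPM in Ctrl against 23.9, 19.0 and 28.2 TPM in *Kmt5b* sKO, which overlap, with a log2 difference of 0.32 (adjusted p = 0.452). *Rad52* and *Mus81* are given in full because they had the highest differences of the set, a choice made after their values were seen.

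The end resection genes differed little in direction but much in size. *Exo1*, the exonuclease of long-range resection, had 25.5, 19.8 and 21.3 TPM in the Ctrl gene bodies and 7.17, 13.0 and 9.03 TPM in the *Kmt5b* sKO gene bodies. *Kmt5b* sKO was 56.2% lower (log2 difference -1.18 ± 0.22 SE, adjusted p = 0.0744). Its TSS values of 25.7, 21.8 and 27.9 RPM against 12.46, 13.2 and 10.1 RPM did not overlap either (log2 difference -1.04, adjusted p = 0.107). The genes of the MRN complex, which recognises broken ends, had smaller gene body differences: -0.33 for *Mre11a*, -0.41 for *Rad50* and -0.24 for *Nbn*, with adjusted p between 0.282 and 0.419, although the groups did not overlap for any of them. *Rbbp8*, which encodes CtIP and starts resection together with MRN, had very even values of 14.2, 14.9 and 13.8 TPM in Ctrl against 9.76, 9.7 and 10.0 TPM in *Kmt5b* sKO. Its difference of -0.52 just missed the threshold (adjusted p = 0.108). At the TSS the differences of *Mre11a* and *Rbbp8* were -0.05 and -0.21, with overlapping groups, and those of *Rad50* and *Nbn* -0.57 and -0.34.

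In the BLM dissolvasome, which takes apart joined recombination intermediates without crossing over, *Rmi2* stood apart from its partners. This small scaffold subunit had the largest difference of all 38 genes in both regions. At the TSS it had 32.2, 10.9 and 19.9 RPM in Ctrl against 3.61, 5.28 and 5.98 RPM in *Kmt5b* sKO, so that the lowest Ctrl value was above all *Kmt5b* sKO values, and *Kmt5b* sKO was 76.4% lower (log2 difference -1.88 ± 0.41 SE, adjusted p = 0.0454). In the gene body it had 5.36, 5.76 and 2.88 TPM against 0.58, 2.75 and 0.81 TPM, values that rest on 5 to 61 reads and nearly meet between Ctrl replicate 3 and *Kmt5b* sKO replicate 2 (log2 difference -1.58 ± 0.45 SE, adjusted p = 0.147). The helicase gene *Blm* differed by -0.36 in the gene body (adjusted p = 0.266), without overlap between groups. *Rmi1* and *Top3a*, the scaffold and topoisomerase genes, both differed by -0.14, with overlapping groups and 95% intervals of -0.43 to 0.14 and -0.47 to 0.19. Whether *Rmi2* differed from its partners was not tested.

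The Fanconi core complex is a ubiquitin ligase that acts at crosslinks stalling a replication fork, and its 8 tested genes ranged in the gene body from -1.01 to 0.02, with 4 lower without overlap between the groups. *Fanca*, a subunit of the core, was the only 1 called in the gene body, with 11.2, 10.3 and 7.45 TPM in Ctrl against 3.68, 5.63 and 4.29 TPM in *Kmt5b* sKO. The groups did not overlap, and *Kmt5b* sKO was 53.1% lower (log2 difference -1.01 ± 0.22 SE, adjusted p = 0.0897). Its TSS values of 27.4, 26.4 and 24.8 RPM against 15.4, 17.8 and 15.6 RPM were even within each group, but the difference of -0.67 was not called (adjusted p = 0.341). *Fancl*, the catalytic subunit, and *Ube2t*, its ubiquitin-conjugating partner, had gene body differences of -0.33 and -0.56 without overlap, and TSS differences of -0.03 and -0.05 with overlap. *Fancm*, a translocase that anchors the complex to DNA, differed by -0.29 in the gene body and -0.73 at the TSS, without overlap in either. *Fancc*, *Fance*, *Fancf* and *Fancg* had gene body differences of -0.10, 0.02, -0.02 and -0.24, all with overlapping groups. *Fancf* has no intron and the shortest body of the set at 1290 nt, and with a Ctrl mean of 90.0 ± 30.6 TPM (SD, n = 3) it had the highest gene body value. Untested *Fancb* read 3.86, 4.53 and 3.96 TPM in the Ctrl gene bodies and 1.71, 3.19 and 1.29 TPM in the *Kmt5b* sKO gene bodies, without overlap and with 20 to 92 reads per value.

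The FANCD2-FANCI complex is the substrate of this ligase, and its ubiquitination marks the crosslink for repair. Both of its genes were called in the gene body with nearly the same difference. *Fancd2* had 7.82, 6.49 and 5.52 TPM in Ctrl against 2.56, 3.17 and 2.89 TPM in *Kmt5b* sKO, which was 56.5% lower (log2 difference -1.07 ± 0.19 SE, adjusted p = 0.0655). *Fanci* had 7.37, 6.0 and 5.34 TPM against 2.49, 3.55 and 2.37 TPM, which was 55.1% lower (log2 difference -1.03 ± 0.21 SE, adjusted p = 0.0788). In both genes every *Kmt5b* sKO library was below every Ctrl library at the TSS too. There *Fancd2* read 15.98, 11.5 and 13.6 RPM in Ctrl against 5.24, 3.3 and 6.44 RPM in *Kmt5b* sKO (log2 difference -1.40, adjusted p = 0.104), and *Fanci* differed by -0.79 (adjusted p = 0.39).

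The structure-selective nucleases, which cut branched DNA, lay on both sides of 0. *Gen1*, a resolvase of Holliday junctions, was called in the gene body: 23.6, 17.4 and 14.7 TPM in Ctrl against 8.5, 9.53 and 9.16 TPM in *Kmt5b* sKO, without overlap and 51.3% lower (log2 difference -0.97 ± 0.19 SE, adjusted p = 0.075). At its TSS the groups overlapped and the difference was -0.89 (adjusted p = 0.252). *Eme1*, which encodes the regulatory partner of MUS81, was called at the TSS with 27.1, 16.7 and 13.6 RPM in Ctrl against 8.52, 7.92 and 3.68 RPM in *Kmt5b* sKO (65.0% lower, log2 difference -1.47 ± 0.39 SE, adjusted p = 0.09). In its gene body 25.1, 19.0 and 11.1 TPM in Ctrl met 8.5, 5.52 and 11.3 TPM in *Kmt5b* sKO, with Ctrl replicate 3 just below *Kmt5b* sKO replicate 3 (log2 difference -1.06 ± 0.34 SE, adjusted p = 0.196). *Mus81*, the catalytic subunit, went the other way: 84.7, 88.5 and 62.7 RPM at the TSS in Ctrl and 103, 89.8 and 102 RPM in *Kmt5b* sKO, the only gene of the 38 with all *Kmt5b* sKO libraries above all Ctrl libraries in either region. How common this was among all tested genes was not counted here. The difference of 0.33 was not called (adjusted p = 0.651), nor was that of 0.35 in the gene body (adjusted p = 0.378). The crosslink nuclease *Fan1* and the nuclease scaffold *Slx4* had gene body differences of -0.24 and -0.25 with overlapping groups, and the TSS values of *Slx4* rest on only 1 to 7 reads.

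**Figure D2:**
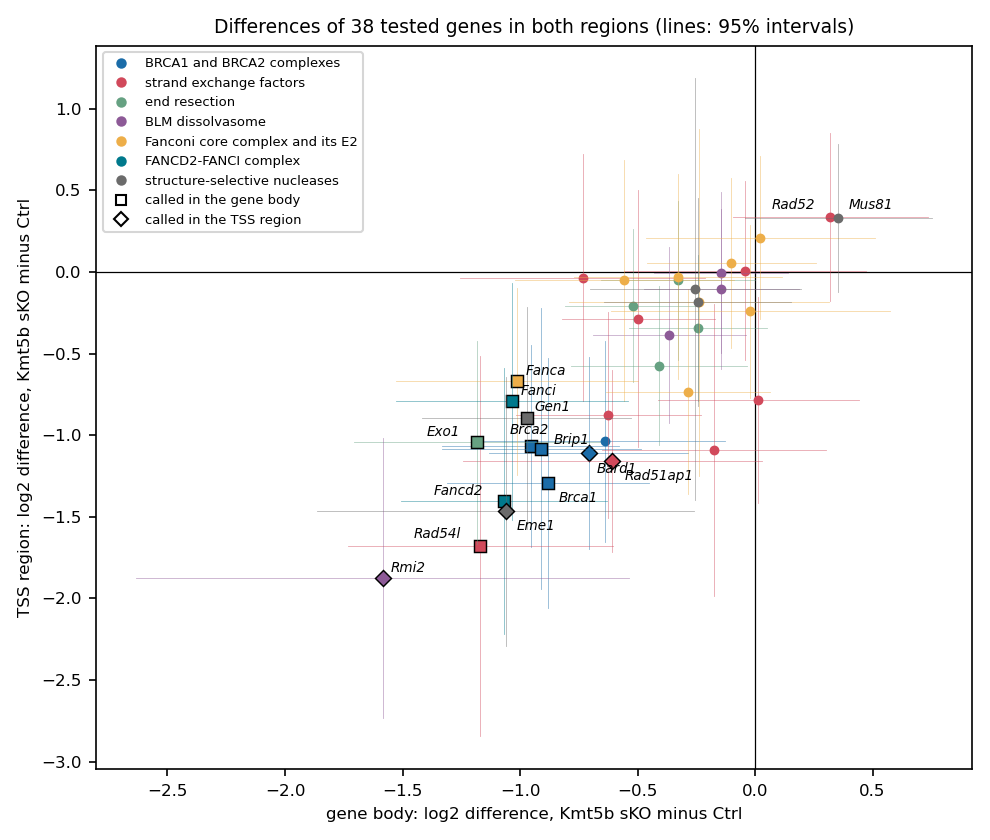
Log2 difference (*Kmt5b* sKO minus Ctrl) of each of the 38 tested genes in the gene body (x axis) and the TSS region (y axis), coloured by role group, with 95% intervals of the limma fit as thin lines. Squares were called in the gene body and diamonds at the TSS, and all 13 of them lie below 0 on both axes, while *Rad52* and *Mus81* lie above 0 on both.

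At the other end, 9 genes had a gene body log2 difference above -0.15: *Rad51d*, *Xrcc3*, *Rad52*, *Rmi1*, *Top3a*, *Fancc*, *Fance*, *Fancf* and *Mus81*. Over the 39 genes the Ctrl means in the gene body ranged from 2.45 TPM (*Rad51b*) to 90.0 TPM (*Fancf*) with a median of 11.2 TPM, against a median of 15.9 TPM over all tested genes. Ranked by Ctrl gene body mean among all tested genes, the 13 called genes had a median percentile of 32.9, from 17.7 (*Rmi2*) to 64.2 (*Exo1*). Those 9 genes had a median percentile of 56.8, from 23.6 (*Fancc*) to 95.1 (*Fancf*). The ranges overlap. Both groups were picked by their differences in these same data, and the limit of -0.15 was not part of the planned tests. The ranks therefore describe these picked genes only. The remaining tested genes were left out of this comparison. Among them *Rad51b*, *Fancl* and *Fancg* ranked below every called gene. The part of the level in the calls was not tested. Another annotated gene overlaps 6 of the 39 on the same strand, where reads cannot be told apart: pseudogenes in *Bard1* and *Fancl*, predicted transcripts in *Brca2* and *Fancc*, an snRNA in *Exo1* and the coding gene *Fsbp* in *Rad54b*. The genes lie on 15 chromosomes, with 8 on chromosome 11 and 5 on chromosome 7.

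The pausing index divides the TSS value by that of the gene body and gives how much polymerase stands near the start relative to the gene. In Ctrl it ranged from 0.08 in *Slx4* to 7.34 in *Brca2* over the 39 genes, with a median of 2.34 that was above the median of 1.49 over all genes, and in *Kmt5b* sKO the median was 2.38. None of the 38 tested genes was called for its pausing index by limma, against 0% of 11698 genes, and 20 of the differences were above 0 and 18 below. The median log2 difference of the index was 0.02, against 0.05 over all genes. The 95% intervals reached a median of 0.63 to either side on the log2 scale. Without adjustment, 4 genes of 38 had a p under 0.05, against 3.86% of all genes: *Rad51b* at -0.97, *Xrcc3* at -0.82, *Rad51ap1* at -0.54 and *Rad54b* at 0.75. In *Rad51b* the index was 4.10 ± 0.58 in Ctrl and 2.14 ± 0.60 in *Kmt5b* sKO (SD, n = 3), and in *Rad54b* 1.2 ± 0.31 and 1.97 ± 0.07.

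Many of these genes start close to a neighbour that is transcribed in the opposite direction. Such a neighbour with its start within 1000 nt was listed for 12 of the 39 genes (30.8%), against 10.2% of all listed genes, and 11 of the 12 neighbours were tested. None of the 11 was called in either region by limma. An unadjusted p under 0.05 was found for 1 in the gene body (*Tex14*), against 15.9% of all tested genes, and 0 at the TSS, against 11.0%. Their median log2 difference was -0.06 in both regions, with 6 of 11 below 0 in each. Every *Kmt5b* sKO library lay below every Ctrl library in the gene body for 4 of the 11 (*Zfyve26*, *Tex14*, *Ankrd49* and *Emc3*), against the 9.34% of all tested genes, and above them for 1 (*Nbr1*). At the TSS they lay below for 2 (*Zfyve26* and *Hnrnpk*), against 5.33%, and above for 1 (*Tex14*). By comparison, the repair genes of the same 11 pairs had medians of -0.61 in the gene body and -0.89 at the TSS. The closest pair is *Fancd2* and *Emc3*, a gene for membrane protein insertion, with starts 30 nt apart. *Emc3* had 46.5, 41.9 and 54.4 RPM at its TSS in Ctrl and 34.4, 47.5 and 39.1 RPM in *Kmt5b* sKO, which overlap (log2 difference -0.24, adjusted p = 0.804), beside -1.40 for *Fancd2*, and its gene body differed by -0.26 without overlap (adjusted p = 0.424), beside -1.07. *Zfyve26* differed by -0.29 in the gene body, beside -0.17 for its partner *Rad51b*. *Nbr1*, an autophagy receptor gene that starts 979 nt from *Brca1*, had 21.3, 31.6 and 26.1 RPM against 41.3, 24.4 and 28.1 RPM (0.22, adjusted p = 0.853), beside -1.29 for *Brca1*. *Dctn5*, of the dynactin complex, starts 95 nt from *Palb2* and differed by -0.06 at the TSS (adjusted p = 0.973), beside -1.04 for *Palb2*. *Smc6*, a subunit of the SMC5/6 complex that also serves recombination, starts 363 nt from *Gen1* and differed by -0.07 at the TSS and -0.26 in the gene body, beside -0.89 and -0.97 for *Gen1*. The neighbour *Tex14* of *Rad51c* had 397, 288 and 727 TPM in the Ctrl gene bodies and 208, 265 and 201 TPM in those of *Kmt5b* sKO, all lower, and its difference of -0.97 (adjusted p = 0.216) stood beside -0.62 for *Rad51c*. Its TSS means of only 0.85 RPM in Ctrl against 2.39 RPM in *Kmt5b* sKO gave a difference of 1.07 (adjusted p = 0.586). The difference between a gene and its neighbour was not tested.

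**Figure D3:**
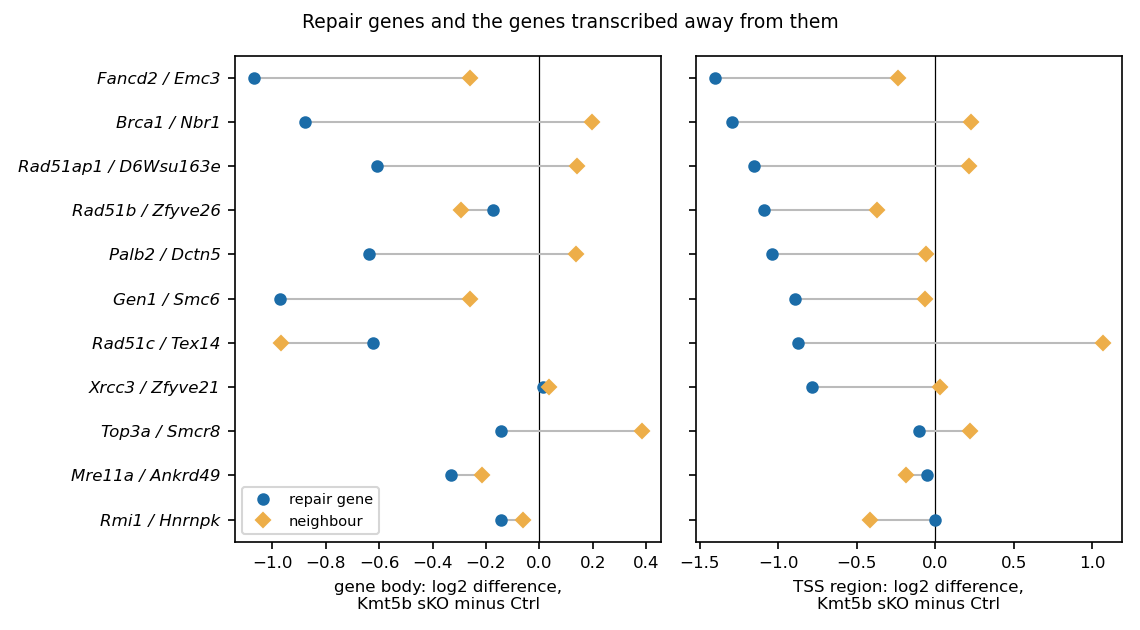
Log2 difference (*Kmt5b* sKO minus Ctrl) of 11 repair genes (circles) and of the neighbours transcribed away from them (diamonds), in the gene body on the left and the TSS region on the right. Each row is a pair, ordered by the TSS difference of the repair gene. In the upper rows, such as *Fancd2* with *Emc3* and *Brca1* with *Nbr1*, the circle lies far to the left of the diamond in both panels.

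Other genes of the same pathways, 48 in number and including RPA and the accessory helicases, were also lower in part. Of these 46 were listed and 45 tested. In the gene body 8 of 45 were called lower, against 1.38% of all tested genes, and 0 higher, against 1.61%. Below 0 were 40 of them, against 46.2% of all tested genes, and the median was -0.38. The largest difference was that of *Polq*, the polymerase of an alternative end-joining route, at -1.21 (7.06 against 2.76 TPM, adjusted p = 0.061). *Zgrf1*, a helicase, followed at -1.10 (adjusted p = 0.062) and *Parpbp*, which restrains recombination, at -0.99 without being called (adjusted p = 0.136). The remaining called genes were *Recql4* (-0.99), *Mdc1* (-0.99), *Mcm8* (-0.97), *Mms22l* (-0.96), *Recql* (-0.93) and *Usp1* (-0.73), which encodes the enzyme that removes ubiquitin from FANCD2. *Usp1* is also in the list of S phase genes below. At the TSS 3 were called lower, *Mdc1* (-1.17), *Mcm8* (-1.08) and the RPA subunit gene *Rpa2* (-0.98), against 0.731% of all tested genes, and the median was -0.40.

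Genes of the cell cycle and of muscle differentiation differed between the same libraries. Of 41 tested S phase genes 21 were called lower in the gene body, against 1.38% of all tested genes, and 0 higher, against 1.61%. Their median was -0.91, and their summed gene body level was 1373 to 1593 TPM in Ctrl against 803 to 932 TPM in *Kmt5b* sKO. Of 40 G2/M genes 25 were called lower, against the same 1.38%, with a median of -1.001 and sums of 1136 to 1743 TPM against 774 to 804 TPM. *Psrc1* was the only G2/M gene above 0, at 1.24. Of 26 myogenic differentiation genes 2 were called higher, against 1.61% of all tested genes, and 0 lower. Of these genes 24 were above 0 with a median of 0.78, and the sums were 4117 to 7527 TPM in Ctrl against 7996 to 11575 TPM in *Kmt5b* sKO. In 4 tested genes of mature fibres 0 were called although 3 had an unadjusted p under 0.05, against 15.9% of all tested genes. Their median was 0.94, and the sums over all 7 listed markers were 189 to 408 TPM and 405 to 824 TPM. *Ckm* is in both of these muscle lists. Of the 8 satellite cell markers 0 were called in either direction and 0 had an unadjusted p under 0.05, with a median of -0.01. The part of these differences in the values of the recombination and Fanconi genes was not tested. In such bulk samples fewer transcribing cells of a kind and less nascent RNA per cell cannot be told apart, and since every library was scaled to a fixed total, a change in total transcription cannot be seen.

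**Figure D4:**
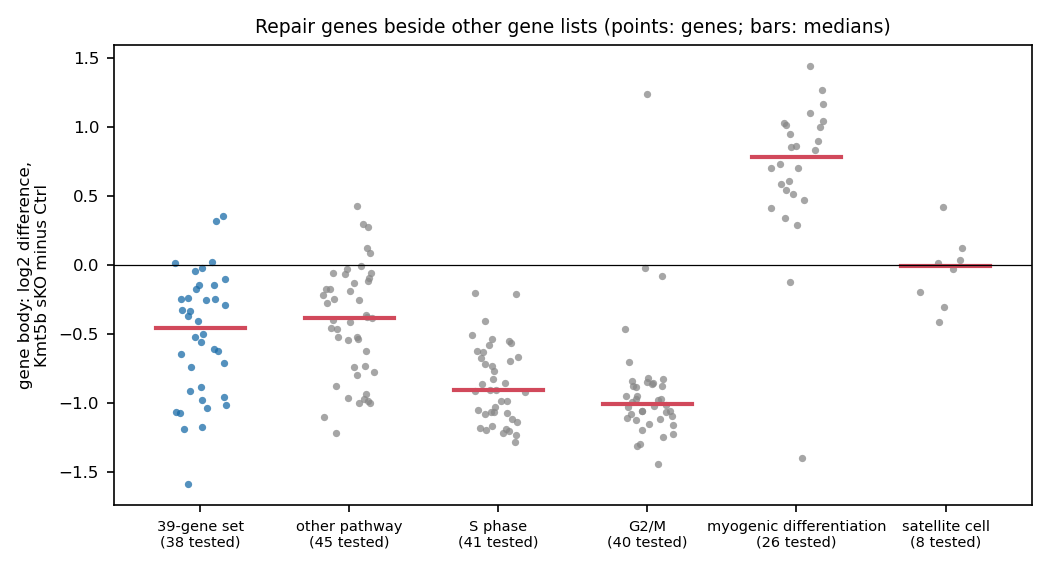
Gene body log2 difference (*Kmt5b* sKO minus Ctrl) of the tested genes of the recombination and Fanconi set and of 5 other lists, with each point a gene and each bar the median of a list. The set has a median of -0.45, between the satellite cell markers at -0.01 and the S phase and G2/M genes at -0.91 and -1.001, and the myogenic differentiation genes lie mostly above 0.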

How the data were processed

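PRO-seq values of proliferating MuSCs were compared between 3 *Kmt5b* sKO and 3 Ctrl samples. Following the study's methods and processing notes, the authors checked reads with FastQC 0.11.8, trimmed them with Trimmomatic 0.39, aligned them to mm10 (GRCm38) with STAR 2.6.1d, where a read with several matches kept 1 random position, and removed duplicates with Picard 2.18.16. Sense-strand reads were counted per isoform, and 1 isoform per gene was listed. The TSS values that the authors deposited, called RPM here, were normalized by them for depth and feature length before deposit, following the study's methods. The methods name these values TPM. All TSS regions are 400 nt long, so TPM and RPM cannot be told apart there. The gene body values that the authors deposited are in TPM. All sample columns were used.

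Genes outside X and Y whose mean was 0.5 or more for the gene body as well as the TSS were tested with limma 3.58.1 in R 4.3.3 (lmFit, eBayes with a trend, genotype as the only term). The pausing index was tested as a log2 ratio without pseudocount. Steps between low values gave read numbers for edgeR 4.0.16 and DESeq2 1.42.0 as alternatives. The values checked were low TSS values and low values of gene bodies under 2000 nt. Of these 100% were whole reads within 0.1 reads. Among the members only *Fancf* has so short a body. Read numbers of longer bodies were not checked, and for long bodies the rounding of the deposited values makes them approximate. The main limma fit, edgeR and DESeq2 were tried on simulated counts of the gene body and the TSS region. The pausing index test was not tried in this way. Python 3.11.15, numpy 2.4.6, pandas 2.3.3 and matplotlib 3.10.9 were used for the rest. Members, lists, tests and alternatives were chosen with earlier results of these data known. Values in every library are given for each called gene and for the gene of each role group with the largest gene body difference. The other pathway genes named are the called ones and the 3 largest differences, and 1 gene of that list is not reported here and was left out of its counts.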

Additional observations from a re-analysis of the deposited data

How the results depend on the processing

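Precision was limited by 3 libraries per group and by depth at the TSS. In the gene body the 9 calls became 0 at an adjusted p under 0.05 (21 genes had an unadjusted p under 0.05, as did 15.9% of all genes, of which 1 was called) and 19 with DESeq2 (4.67% of all tested genes were called lower), and leaving out 1 library gave 0 to 15. In the TSS region the 4 calls became 1 at an adjusted p under 0.05, 0 by limma without a filter on low values (16 with an unadjusted p under 0.05), 0 without a trend (18), 8 with means of 2 or more required, 9 after median centring, 9 after quantile normalization, 9 with edgeR and 9 with DESeq2, and leaving out 1 library gave 0 to 8. The shares of all genes called lower there were 0.209%, 0%, 0%, 0.962%, 0.98%, 0.988%, 1.2% and 1.29% in the same order. An unadjusted p under 0.05 was found for 10.3% of all genes without the filter and for 10.4% without a trend. The median stayed between -0.50 and -0.43 in the gene body and between -0.59 and -0.39 at the TSS under the settings that keep all libraries. The pausing index gave 0 calls under every alternative run.

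The labels do not say whether equal replicate numbers mark paired samples. The correlations of deviations between libraries with the same number were -0.15, -0.17 and -0.33 in the gene body and -0.03, -0.13 and -0.16 at the TSS. Deviations from a group mean are tied to each other, so these correlations cannot decide whether the samples were paired. With the replicate block limma called 0 of the 38 genes in either region, where 18 had an unadjusted p under 0.05 in each, and it called 0 of all tested genes. Of all tested genes, 11.6% in the gene body and 9.16% at the TSS had an unadjusted p under 0.05 in this fit. With X and Y kept, *Fancb* differed by -0.91 in the gene body (adjusted p = 0.179) and by -0.10 at the TSS (adjusted p = 0.972).

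Over all alternatives 43 values changed sign. In the gene body *Xrcc3* became -0.012 with edgeR and -0.017 with DESeq2, and *Fance* -0.000793 with quantile normalization, -0.00035 with edgeR and -0.0066 with DESeq2. At the TSS *Rad51d* became -0.057, -0.058, -0.053 and -0.063 with median centring, quantile normalization, edgeR and DESeq2, *Fancc* -0.00878, -0.00851, -0.033 and -0.042 in the same order, and *Slx4* 0.046 with edgeR and 0.0042 with DESeq2. Leaving out 1 library turned the sign of 4 genes in the gene body, with ranges of -0.27 to 0.0893 (*Rad51d*), -0.11 to 0.15 (*Xrcc3*), -0.16 to 0.17 (*Fance*) and -0.17 to 0.24 (*Fancf*). It turned 10 at the TSS, with ranges of -0.10 to 0.14 (*Rad51d*), -0.23 to 0.27 (*Rad54b*), -0.14 to 0.0921 (*Mre11a*), -0.11 to 0.15 (*Rmi1*), -0.11 to 0.14 (*Fancc*), -0.44 to 0.25 (*Fancg*), -0.19 to 0.15 (*Fancl*), -0.21 to 0.16 (*Ube2t*), -0.43 to 0.0794 (*Fan1*) and -0.45 to 0.29 (*Slx4*). The causes were not tested.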
